A study of Mus musculus with 6 samples.

Results

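Satb1, Tcf7, Lef1, Bach2 and Foxp1 encode transcription and chromatin factors of T cells, and their RNA levels were described here in CD4 T cells of the mouse colonic lamina propria. The 5 genes were chosen by name, and all 5 are among the 15473 genes of the deposited single-cell table. The mice carried Foxp3{delta}EGFPiCre/WT, an X-linked Foxp3 allele fitted with EGFP and iCre, beside an intact one, together with R26lsl-tdTomato/wt, a reporter that Cre turns on in a cell and its offspring. tdTomato+GFP+ cells, which transcribe the inserted allele, were compared with tdTomato-GFP- cells, in which neither reporter is seen. Both gates were sorted from the same genotype, and the labels give no age. The inserted allele is taken here to be a reporter allele without Foxp3 protein, which the labels do not spell out. Since the gene is X-linked, 1 allele is active per cell, and regulatory T (Treg) cells that use the intact allele fall in the tdTomato-GFP- gate, mixed with other CD4 T cells. Each gate filled 1 10x lane, on which its 3 biological replicates were told apart by hashtags, and the effects of gate and lane cannot be told apart.

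Tcf7 and Lef1 encode TCF-1 and LEF-1, DNA-binding proteins with an HMG box that act in the Wnt and beta-catenin pathway and keep T cells in naive, memory and follicular helper states. Satb1 encodes a chromatin organizer that shapes gene loops in thymocytes and at Treg genes. Bach2 encodes a bZIP repressor that restrains effector programmes at sites shared with AP-1, and Foxp1 encodes a forkhead repressor, a relative of Foxp3, that holds naive T cells in quiescence.

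The HMG box proteins bind a short motif, searched here as TCAAAG on either strand (CTTTGA on the other). RefSeq promoters of GRCm38.p6, from 250 bases before to 50 bases after a start, were found for all 5 genes, 15 in all. Only the 250 bases before each start were searched for motifs, not the 50 bases after it. Of these 15 promoters, 3 held TCAAAG: 1 of the 4 Lef1 promoters, the only 1 of Bach2 and 1 of the 3 of Foxp1. None of the 5 Satb1 and 2 Tcf7 promoters did. Among all 32851 promoters, searched over the same 250 bases, 13.8% held it. The windows below show where these letters lie in the promoters that hold them. Capitals mark the motif, which is a match of letters and not a measured site. All of these windows lie inside the gene spans given below, downstream of the outermost start, so they belong to internal starts.
Lef1 chr3:131156084-131156149, plus strand, GRCm38.p6, motif 180 to 175 bases before the start: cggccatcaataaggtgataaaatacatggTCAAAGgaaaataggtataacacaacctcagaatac
Lef1 chr3:131156144-131156209, plus strand, GRCm38.p6, motif 120 to 115 bases before the same start: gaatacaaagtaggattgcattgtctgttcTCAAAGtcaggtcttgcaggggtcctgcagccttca
Bach2 chr4:32417312-32417377, plus strand, GRCm38.p6, motif 93 to 88 bases before the start: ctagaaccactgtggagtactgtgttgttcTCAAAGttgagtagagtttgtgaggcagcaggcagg
Foxp1 chr6:99266684-99266749, minus strand, GRCm38.p6, motif 204 to 199 bases before the start: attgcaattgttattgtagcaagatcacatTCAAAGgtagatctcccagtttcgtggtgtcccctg
The forkhead motif GTAAACA, read on both strands, was in none of the 15 promoters and in 3.17% of all promoters. The AP-1 and Bach motif TGAGTCA, read likewise, was in none of the 15 and in 4.46% of all. In the GRCm38 annotation the genes lie on chromosome 17 (Satb1, 51736187 to 51833290, minus strand), chromosome 11 (Tcf7, 52252371 to 52283014, minus), chromosome 3 (Lef1, 131110471 to 131224356, plus), chromosome 4 (Bach2, 32238804 to 32586108, plus) and chromosome 6 (Foxp1, 98925338 to 99522721, minus).

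The table held 23595 cells, of which 18874 had a replicate: 8765 tdTomato+GFP+ cells and 10109 tdTomato-GFP- cells. Replicates had between 1747 and 4610 cells and 7424984 to 20153550 UMIs in the tdTomato+GFP+ gate and between 1836 and 5159 cells and 7925662 to 23289046 UMIs in the tdTomato-GFP- gate, with median depths of 3501.5 to 3771 and 3778.5 to 3905 UMIs per cell. The 6 T cell markers were present in every replicate and summed to 4822 to 5226 counts per 1000000 UMIs (CPM) in tdTomato+GFP+ and 3789 to 4139 CPM in tdTomato-GFP- cells. Transcripts of 9 B and plasma cell markers summed to 744 to 2851 and 1169.8 to 2732 CPM, and in cells with a cluster number to 248 to 289.7 and 444 to 481 CPM. The lanes shared 174 cell barcodes. Clusters carry the authors' numbers: clusters 1, 2, 3, 12 and 13 are Th17-like by their markers, cluster 0 Th2-like, cluster 7 Tfh-like, cluster 9 naive or central memory-like and cluster 10 cycling-like. Cluster 5 carried Treg markers and cluster 6 Th1 markers, and both are called by number.

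Over all assigned cells, the RNAs of Satb1, Tcf7, Lef1 and Bach2 were lower and that of Foxp1 was higher in the tdTomato+GFP+ gate, and no member's replicates overlapped between the gates. In edgeR's quasi-likelihood test on summed UMI counts with Benjamini-Hochberg adjustment over 11933 genes, all 5 passed the threshold of 0.05. Of all genes tested 26.4% passed, 13% higher and 13.4% lower, so a call by itself does not set the members apart. The share of all genes without overlap was not counted, so the lack of overlap does not set them apart either. Levels are UMI counts per 1000000 of the total without hashtags, and values are given in the order of replicates 1 to 3. In a summed value, fewer cells of a type and less RNA per cell cannot be told apart. The 6 naive or central memory markers moved the same way, with summed levels of 585 to 659 CPM in tdTomato+GFP+ and 1404 to 1908 CPM in tdTomato-GFP- cells (Dapl1 was at 0 in tdTomato+GFP+ replicate 1). Each member is therefore given also without cluster 9, where these markers are highest, and within the Th17-like clusters.

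Satb1, the chromatin organizer, had 41.6, 55.7 and 63.3 CPM in tdTomato+GFP+ cells, against 159.6, 158 and 168 CPM in tdTomato-GFP- cells. The tdTomato+GFP+ replicates were spread more widely than the others, and all lay far below them. The log2 fold change was -1.61 (SE 0.14, adjusted p = 0.000568, edgeR). Without cluster 9 the levels were 41.4, 54.7 and 61.3 CPM in tdTomato+GFP+ cells, against 139.9, 144 and 141 CPM in tdTomato-GFP- cells (log2 fold change -1.43, adjusted p = 0.000400). The Th17-like clusters also held a large difference, with 34.6, 44.0 and 54.8 CPM in tdTomato+GFP+ cells against 165, 182 and 142 CPM in tdTomato-GFP- cells. There the log2 fold change was -1.92 (SE 0.16, adjusted p = 0.000164).

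Tcf7, which encodes TCF-1, had 100.2, 107 and 126 CPM in tdTomato+GFP+ cells, against 345, 296 and 331 CPM in tdTomato-GFP- cells. Every tdTomato-GFP- replicate exceeded the highest tdTomato+GFP+ replicate by more than the spread within either gate (log2 fold change -1.56, SE 0.09, adjusted p = 4.42e-05, edgeR). Without cluster 9 the levels were 102, 105 and 120.4 CPM in tdTomato+GFP+ cells, against 314, 268 and 282 CPM in tdTomato-GFP- cells (-1.41, SE 0.07, adjusted p = 9.98e-06). In the Th17-like clusters, summed, the difference was smaller. There Tcf7 had 56.3, 63.6 and 58.6 CPM in tdTomato+GFP+ cells, against 97.3, 109 and 102 CPM in tdTomato-GFP- cells, still without overlap (log2 fold change -0.81, SE 0.09, adjusted p = 2.67e-05). These clusters were not mixed alike in the gates, since cluster 2 gave 1599 of 5665 such tdTomato+GFP+ cells and 476 of 1123 such tdTomato-GFP- cells. Of clusters 1, 2 and 3, cluster 2 had the highest Tcf7 level, with a mean of 83.9 CPM in tdTomato+GFP+ and 148 CPM in tdTomato-GFP- cells. In clusters 1 (-0.53, SE 0.20, adjusted p = 0.134) and 3 (-0.34, SE 0.17, adjusted p = 0.318) alone the difference did not pass. With the same number of cells drawn from each cluster in both gates, the all-cell log2 fold change was -0.56 and no longer passed (adjusted p = 0.208).

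Lef1, the other TCF/LEF member and a naive T cell gene, had the largest log2 fold change of the 5. It had 8.62, 15.0 and 20.3 CPM in tdTomato+GFP+ cells, against 93.5, 83.4 and 119 CPM in tdTomato-GFP- cells (-2.74, SE 0.33, adjusted p = 0.00519). Without cluster 9 the tdTomato-GFP- levels were much lower, and still above those of the other gate: 7.78, 13.6 and 16.4 CPM in tdTomato+GFP+ against 61.6, 49.7 and 60.4 CPM in tdTomato-GFP- cells (-2.15, adjusted p = 0.00154). Cluster 9 held 0.611% of clustered tdTomato+GFP+ cells and 13.9% of their Lef1 UMIs, against 7.04% of tdTomato-GFP- cells and 43.6% of their Lef1 UMIs. In the Th17-like clusters Lef1 was low in both gates, at 4.17, 10.2 and 10.3 CPM in tdTomato+GFP+ cells, against 20.1, 21.4 and 28.7 CPM in tdTomato-GFP- cells (-1.45, SE 0.31, adjusted p = 0.0127). That call rested on 21, 127 and 55 UMIs in tdTomato+GFP+ and 54, 27 and 29 UMIs in tdTomato-GFP- cells. It was lost when tdTomato-GFP- replicate 1 (-1.58, adjusted p = 0.0599), replicate 2 (-1.49, adjusted p = 0.0663) or replicate 3 (-1.31, adjusted p = 0.0599) was left out. With equal cells per cluster the all-cell value was -1.27 and did not pass (adjusted p = 0.155).

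Bach2, the bZIP repressor, had 17.1, 17.1 and 14.6 CPM in tdTomato+GFP+ cells, against 36.4, 41.4 and 34.3 CPM in tdTomato-GFP- cells, again without overlap (a fold change of -1.21 on the log2 scale, SE 0.10, adjusted p = 0.000153). Without cluster 9 the levels were 16.5, 16.2 and 13.7 CPM in tdTomato+GFP+ cells, against 27.8, 30.7 and 23.7 CPM in tdTomato-GFP- cells (-0.84, SE 0.12, adjusted p = 0.00101). In the Th17-like clusters they overlapped, at 10.9, 11.7 and 8.64 CPM in tdTomato+GFP+ cells, against 14.5, 11.1 and 12.9 CPM in tdTomato-GFP- cells, and the log2 fold change of -0.35 (SE 0.22) did not pass (adjusted p = 0.363). With equal cells per cluster the all-cell value was -0.32 (adjusted p = 0.385). Bach2os, a gene on the opposite strand that overlaps a Bach2 exon, had 52 UMIs in the assigned cells. Strand use in counting is not given in the sources used here, so reads of this pair cannot be told apart.

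Foxp1, the forkhead repressor, moved the other way. It had 176, 155 and 169 CPM in tdTomato+GFP+ cells, against 115, 107 and 119 CPM in tdTomato-GFP- cells (a fold change of 0.54 on the log2 scale, SE 0.07, adjusted p = 0.000669). The difference was larger without cluster 9, where the tdTomato-GFP- cells had less of it: 179, 156 and 168 CPM in tdTomato+GFP+ against 106, 97.4 and 103 CPM in tdTomato-GFP- cells (0.71, SE 0.06, adjusted p = 8.45e-05). The Th17-like clusters gave 165, 147 and 161 CPM in tdTomato+GFP+ cells, against 86.9, 95.99 and 96.1 CPM in tdTomato-GFP- cells (0.74, SE 0.08, adjusted p = 2.64e-05). Foxp1 was the only one of the 5 that was higher in the tdTomato+GFP+ gate in these 3 sets of cells. In the comparison without cluster 9 all 5 members passed, beside 25.5% of the 11776 genes tested, and in the Th17-like clusters 4 passed, beside 11.2% of 10075. Other markers also moved within the Th17-like clusters: the 8 Th17 markers summed to 21633 to 23817 CPM in tdTomato+GFP+ cells, against 15879 to 17439.7 CPM in tdTomato-GFP- cells. The 6 Th1 markers summed to 276 to 601 CPM in tdTomato+GFP+ cells, against 1396 to 1616 CPM in tdTomato-GFP- cells, and the naive or central memory markers to 384 to 404 CPM against 459 to 514 CPM. Their part in the results was not tested.

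**Figure D1:**
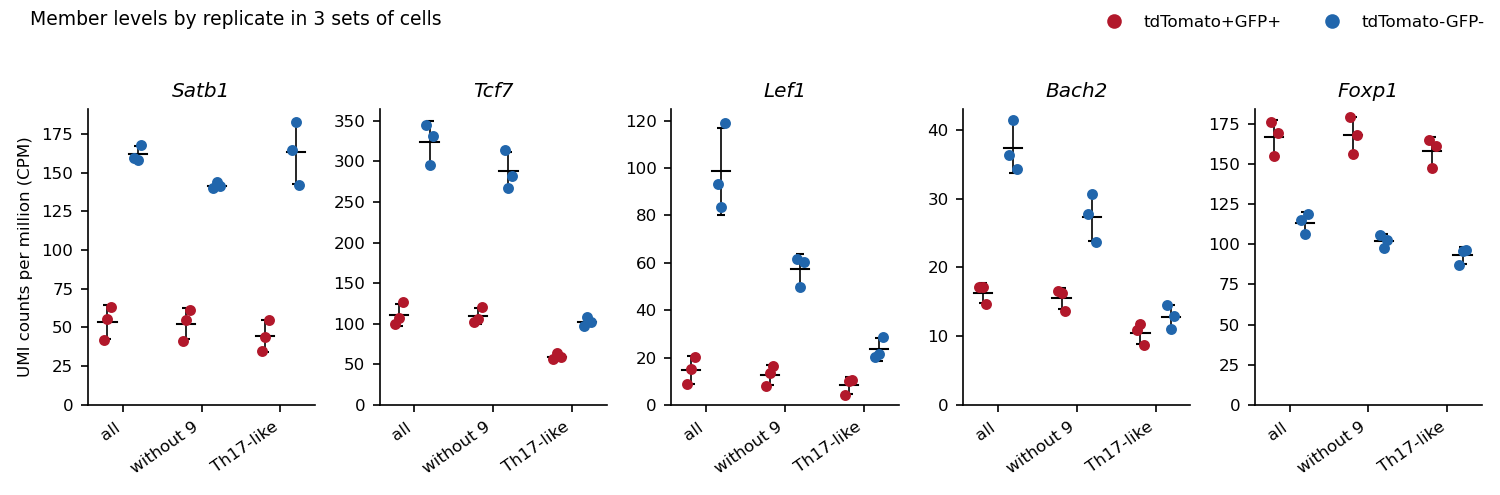
Levels of the 5 genes in CPM (y axis) for each replicate (points), with the mean and SD over 3 replicates (bars), in all assigned cells, without cluster 9 and in the Th17-like clusters (x axis). tdTomato+GFP+ points lie below tdTomato-GFP- points for Satb1, Tcf7 and Lef1 in all 3 sets and above them for Foxp1, while those of Bach2 overlap in the Th17-like clusters.

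The share of cells with at least 1 UMI of a gene followed the levels when every cell was thinned to 2000 UMIs. The share for Lef1 was 2.55% ± 0.882 of tdTomato+GFP+ and 14.2% ± 2.14 of tdTomato-GFP- cells (SD, n = 3 each), and for Satb1 8.81% ± 1.52 of tdTomato+GFP+ and 23.6% ± 1.02 of tdTomato-GFP- cells. A Tcf7 UMI was kept in 15.8% ± 1.18 of tdTomato+GFP+ and 35.9% ± 1.33 of tdTomato-GFP- cells. The Bach2 share was 3.16% ± 0.309 of tdTomato+GFP+ cells, against 7.03% ± 0.618 of tdTomato-GFP- cells. Foxp1 was found in more tdTomato+GFP+ cells, 25.6% ± 1.51 against 19.3% ± 1.10 of tdTomato-GFP- cells. Replicates of the gates did not overlap for any of the 5, and the exact permutation test, two-sided, gave p = 0.1 for each, the smallest value that 3 against 3 allows (0.133 after adjustment over 80 shares). How many of all genes were separated in this way was not counted. Unthinned, Lef1 was seen in 4.66% of tdTomato+GFP+ and 22.2% of tdTomato-GFP- cells, at the median depths given above. Cells with no cluster number, receptor or T cell transcript were looked at as a possible measure of background. Among them Lef1 was in 0 of 27 tdTomato+GFP+ cells, which allows a share of up to 11.1%, and in 0 of 42 tdTomato-GFP- cells, which allows 7.14%. Both limits lie above the tdTomato+GFP+ share of Lef1, so that share cannot be told from background by these few cells. The other members were seen in such cells. Satb1 was in 25.9% of the tdTomato+GFP+ and 14.3% of the tdTomato-GFP- ones, Bach2 in 29.6% and 7.14%, Foxp1 in 33.3% and 35.7%, and Tcf7 in 0 of 27 and 11 of 42. Unthinned, Satb1 was seen in 16.2% of all tdTomato+GFP+ cells, Bach2 in 6.08% of them and Foxp1 in 32.7% of all tdTomato-GFP- cells. These 3 shares lie below those of the cells without T cell transcripts in the same gate. The cells without T cell transcripts had a median depth of 2772 UMIs in the tdTomato+GFP+ and 5343 in the tdTomato-GFP- gate. They had a median of 78 (tdTomato+GFP+) and 49.5 (tdTomato-GFP-) UMIs of B cell markers, so they are not empty droplets. Whether they express the members themselves was not tested. Their shares therefore give no level of background for Satb1, Tcf7, Bach2 or Foxp1, and the part of background in these genes' shares stays unknown.

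**Figure D2:**
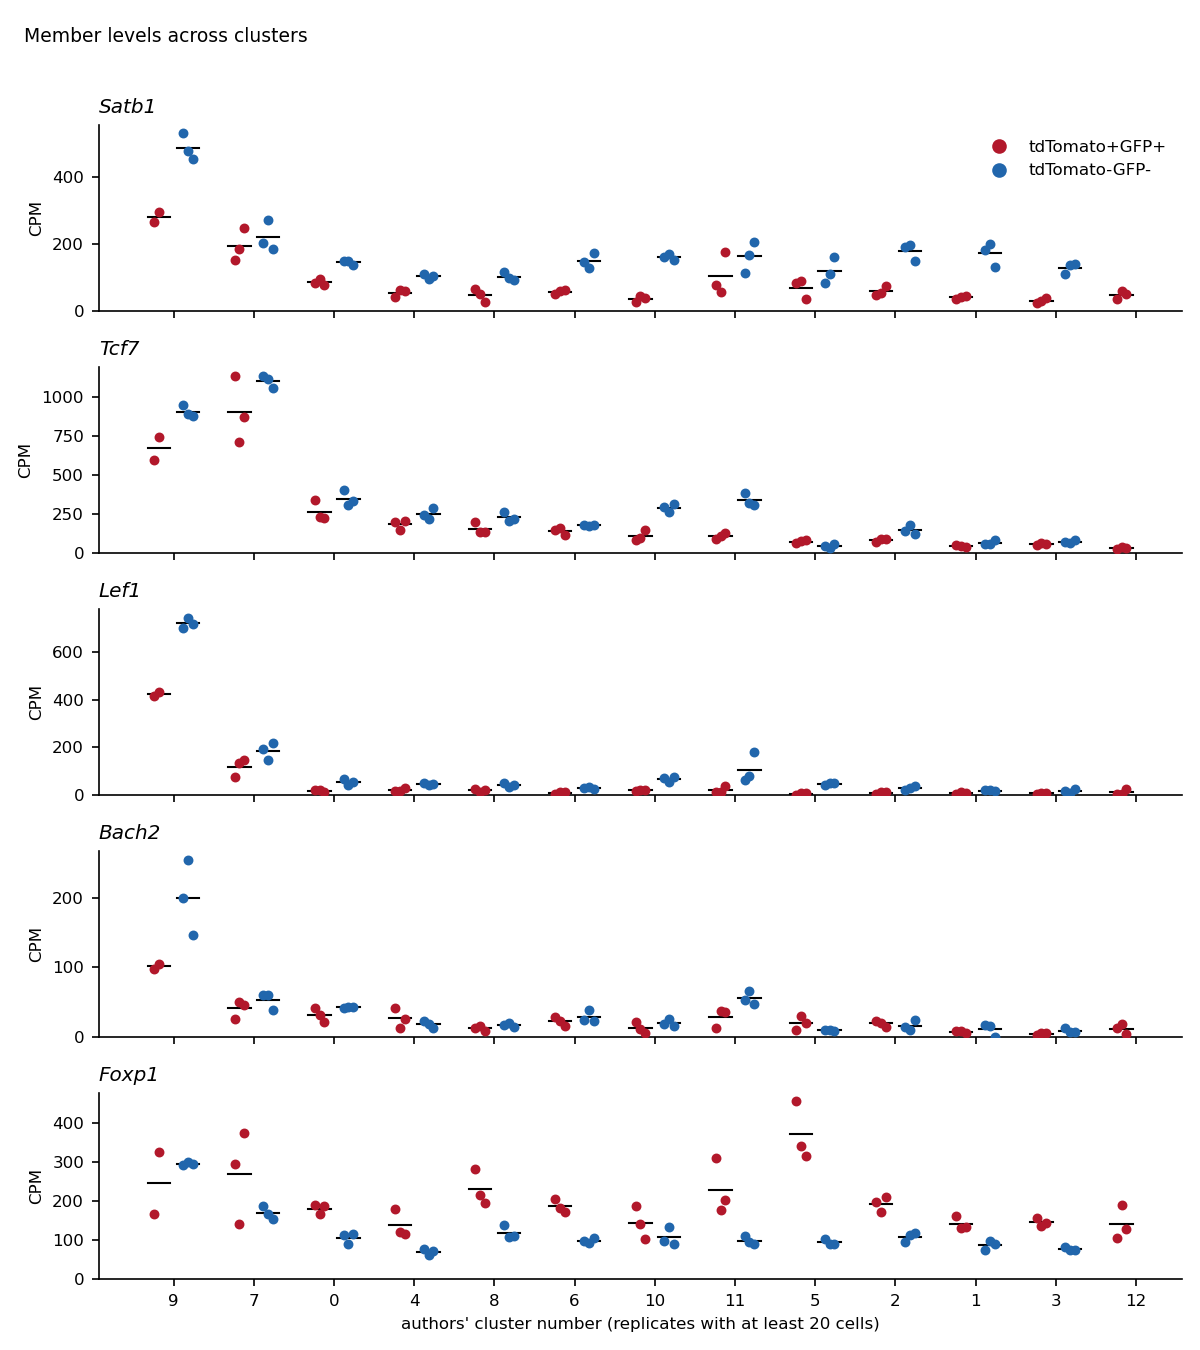
Levels of the 5 genes in CPM (y axes, 1 scale per gene) in each replicate with at least 20 cells (points) and their mean (lines), by the authors' cluster number (x axis). Tcf7 is highest in cluster 7 of both gates, Lef1 is highest in cluster 9 of tdTomato-GFP- cells, and Foxp1 in tdTomato+GFP+ cells is highest in cluster 5.

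Across clusters, all 5 genes were high in the naive or central memory-like cluster 9. In tdTomato-GFP- cells of cluster 9, Lef1 had 702, 743 and 718 CPM, Satb1 529.7, 478 and 455 CPM and Foxp1 292, 298 and 294 CPM. The tdTomato+GFP+ gate had 6, 20 and 27 cells there, too few for a test, with Lef1 at 397, 417 and 431 CPM. Cluster 9 ranked first among the 14 clusters with enough tdTomato-GFP- cells for Satb1 (mean 488 CPM), Lef1 (721 CPM), Bach2 (199.95 CPM) and Foxp1 (295 CPM). Its lead over the next cluster exceeded the replicates' spread for Lef1 and Foxp1. For Bach2 its lowest replicate (147 CPM) lay just above the highest of the unnamed cluster 14 (142 CPM), whose 3 replicates held 11, 5 and 4 Bach2 UMIs. For Satb1 cluster 14 (484 CPM) overlapped with it. Tcf7 had another order, in which the Tfh-like cluster 7 came first in tdTomato-GFP- cells (mean 1107 CPM), above cluster 9 (908 CPM) without overlap. Cluster 7 was also first for Tcf7 among the 13 clusters with enough tdTomato+GFP+ cells (906.5 CPM), far above cluster 0 (266 CPM). At the low end, Lef1 in tdTomato-GFP- cells averaged 18.8 CPM in cluster 1 and 17.99 CPM in cluster 3, which overlapped with each other. Cluster 6 (29.0 CPM) lay above cluster 1 without overlap, while its lowest replicate (24.7 CPM) was below the highest of cluster 3 (25.9 CPM). Satb1 in tdTomato-GFP- cells was lowest in the cytotoxic-like cluster 15 (30.8 CPM), below cluster 8 (102 CPM) without overlap. That low value rests on few counts. Cluster 15 had 74, 43 and 26 tdTomato-GFP- cells and 0.211% of the Satb1 UMIs of clustered cells in this gate. Most neighbours in the middle of these orders overlapped.

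As a description over 15 clusters of the tdTomato-GFP- gate, which share a lane and its depth, the profiles of Lef1 and Foxp1 were alike (Pearson's r = 0.929 on log2 of CPM plus 20, and 0.835 without cluster 9). Those of Lef1 and Bach2 had r = 0.902 and those of Tcf7 and Lef1 r = 0.838. Satb1 stood apart, with r = 0.303 to Tcf7 and 0.490 to Lef1, and 0.103 and 0.184 without cluster 9. Among 6116 genes, Actn1 (0.986) was most like Lef1, followed by Rflnb (0.945) and Il6ra, the IL-6 receptor chain (0.937). S1pr1, the receptor that guides T cells out of tissue, was most like Bach2 (0.960). Cd9 (0.941) and Dtx1 (0.933) were most like Tcf7, and Trib2 (0.892) and Ndrg3 (0.846) most like Satb1. Of the other members only Foxp1 was among the 5 genes most like Lef1, and Lef1 was the gene most like Foxp1.

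Each of the 11 clusters with at least 20 cells in every replicate was then tested by itself. Satb1 was lower in tdTomato+GFP+ cells in 8 of 11 clusters, Lef1 in 7 and Tcf7 in 3, and Foxp1 was higher in 9, while Bach2 passed in none of the 8 clusters in which it could be tested. Among all genes tested, the share that passed as lower was 1.74% in cluster 0, 3.88% in cluster 1, 2.75% in cluster 2, 3.33% in cluster 3, 0.921% in cluster 4, 2.2% in cluster 5, 3.2% in cluster 6, 0.118% in cluster 7, 0.456% in cluster 8, 2.08% in cluster 10 and 2.07% in cluster 11. The share that passed as higher was 0.805%, 2.2%, 2.29%, 1.78%, 0.644%, 1.51%, 2%, 0.395%, 0.274%, 1.79% and 1.93% in the same clusters. In either direction it was 2.55% in cluster 0, 6.08% in cluster 1, 5.04% in cluster 2, 5.11% in cluster 3, 1.56% in cluster 4, 3.71% in cluster 5, 5.2% in cluster 6, 0.513% in cluster 7, 0.73% in cluster 8, 3.88% in cluster 10 and 4% in cluster 11. The clusters share their replicates and both lanes, so they are not independent repeats of the comparison.

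**Figure D3:**
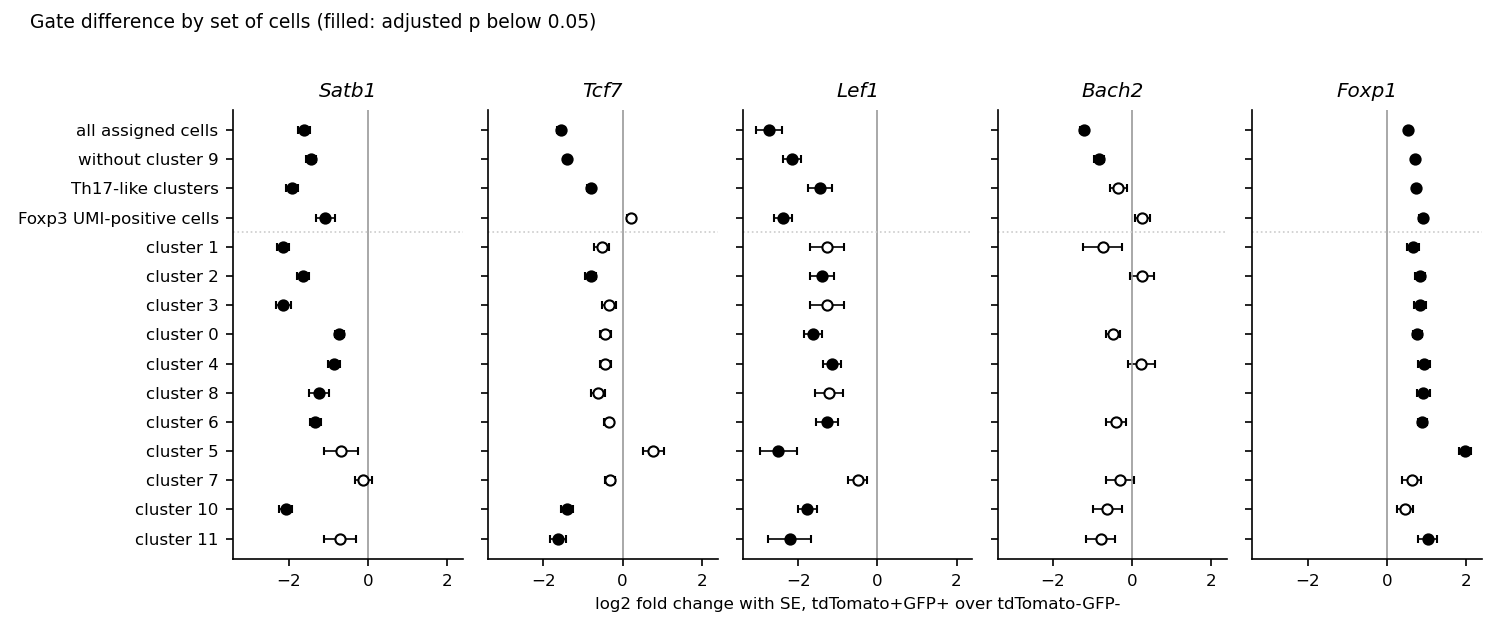
Log2 fold change (tdTomato+GFP+ over tdTomato-GFP-) and its SE (x axis) for each gene in 4 sets of cells and 11 single clusters (y axis). Filled points passed an adjusted p of 0.05. Satb1 and Lef1 lie left of 0 and Foxp1 right of 0 in all sets, and Foxp1 in cluster 5 lies furthest right.

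The Satb1 difference was widest in the Th17-like clusters 1 and 3 and in the cycling-like cluster. In cluster 1 it had 35.1, 43.0 and 45.3 CPM in tdTomato+GFP+ cells, against 183, 201 and 131 CPM in tdTomato-GFP- cells, and in cluster 3 22.8, 28.6 and 38.3 CPM against 109, 138 and 141 CPM. The groups were far apart in both clusters (log2 fold changes -2.14 and -2.13, adjusted p = 3.50e-08 and 6.43e-08, edgeR). Cluster 10 gave -2.07 (adjusted p = 2.07e-08) and cluster 6 -1.33 (adjusted p = 9.57e-08). In the Th2-like cluster 0 the levels were 84.6, 96.2 and 78.8 CPM in tdTomato+GFP+ cells, against 151, 149.98 and 136 CPM in tdTomato-GFP- cells, a smaller difference without overlap (-0.72, adjusted p = 0.00123). A test of the difference itself, as the interaction of gate and cluster, found the fall in cluster 0 smaller than in the Th17-like clusters by 1.17 on the log2 scale (SE 0.16, adjusted p = 5.61e-05, beside 2.39% of genes that passed this test). The same held for cluster 4 (1.03, SE 0.19, adjusted p = 0.000877, 2.09% passed). The call in cluster 8 (-1.23, adjusted p = 0.0146) was lost with DESeq2 (-1.23, adjusted p = 0.159) and when tdTomato+GFP+ replicate 2 (-1.57, adjusted p = 0.0639) or 3 (-0.90, adjusted p = 0.239) or tdTomato-GFP- replicate 1 (-1.14, adjusted p = 0.0663), 2 (-1.26, adjusted p = 0.165) or 3 (-1.30, adjusted p = 0.0816) was left out. Cluster 11 (-0.70, adjusted p = 0.473) passed without tdTomato+GFP+ replicate 3 (-1.40, adjusted p = 0.0103). Its interaction with the Th17-like clusters passed (1.17, SE 0.30, adjusted p = 0.0202), but not without the replicate block (1.21, adjusted p = 0.540). Of the 8 clusters outside the Th17-like ones that were tested this way, the interaction of Satb1 passed in clusters 0, 4, 7 and 11.

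Cluster 7, the Tfh-like cluster in which Tcf7 is highest, had no member past the threshold. Satb1 had 153, 186 and 246 CPM in tdTomato+GFP+ cells, against 204, 272 and 184 CPM in tdTomato-GFP- cells, with overlapping groups (log2 fold change -0.11, SE 0.20, adjusted p = 0.941). Without tdTomato-GFP- replicate 2 that value was 0.03 (adjusted p = 0.992). The interaction with the Th17-like clusters passed for Satb1 (1.74, SE 0.22, adjusted p = 3.52e-09, beside 1.39% of genes), so the fall of Satb1 was not seen to the same extent in the Tfh-like cells. Tcf7 had 1137, 711 and 872 CPM in tdTomato+GFP+ cells, against 1139, 1120.4 and 1060.4 CPM in tdTomato-GFP- cells, a log2 fold change of -0.31 (SE 0.12, adjusted p = 0.480). The tdTomato+GFP+ gate had 20, 43 and 38 cells in cluster 7, which limits what a test can show. The 6 Tfh markers summed to 1337 to 1897 CPM in those cells and 2057 to 2307 CPM in tdTomato-GFP- cells, and their part in the result was not tested.

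Lef1 fell within clusters that are not naive-like. In cluster 0 it had 19.3, 19.8 and 12.3 CPM in tdTomato+GFP+ cells, against 65.7, 41.7 and 52.7 CPM in tdTomato-GFP- cells, without overlap (log2 fold change -1.62, SE 0.23, adjusted p = 0.00114). Of 23 naive and central memory genes, 3 were lower in these cells and none higher (median log2 fold change -0.28). Among all genes tested in cluster 0, 1.74% were lower and 0.805% higher, so this list had a larger share lower. The 6 naive or central memory markers summed to 732 to 1492 CPM in tdTomato+GFP+ cells, against 976 to 1258 CPM in tdTomato-GFP- cells, with overlapping replicates, and their part in the result was not tested. In the cycling-like cluster 10 it had 15.9, 20.2 and 21.5 CPM in tdTomato+GFP+ against 70.7, 56.1 and 75.5 CPM in tdTomato-GFP- cells (-1.77, SE 0.24, adjusted p = 2.24e-05). These calls were kept when any 1 replicate was left out, and so was that of cluster 6 (-1.27, adjusted p = 0.00325), which was lost with DESeq2 (-1.32, adjusted p = 0.0673). Others rested on single libraries. The call in cluster 2 (-1.40, adjusted p = 0.00638) was lost without tdTomato-GFP- replicate 3 (-1.20, adjusted p = 0.0530), and that in cluster 4 (-1.16, adjusted p = 0.00863) without tdTomato+GFP+ replicate 2 (-0.91, adjusted p = 0.241) or tdTomato-GFP- replicate 1 (-1.06, adjusted p = 0.0870) and with DESeq2 (-1.14, adjusted p = 0.0661). The one in cluster 11 (-2.22, adjusted p = 0.0405) was lost without tdTomato+GFP+ replicate 1 (-2.16, adjusted p = 0.121) or 2 (-1.68, adjusted p = 0.346) or tdTomato-GFP- replicate 2 (-2.38, adjusted p = 0.0695). In the Th17-like cluster 1 the value of -1.28 did not pass (adjusted p = 0.0953), though it did once replicate numbers were a block (-1.49, adjusted p = 0.0397).

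Tcf7 passed within clusters 2 (log2 fold change -0.81, SE 0.13, adjusted p = 0.000281), 10 (-1.41, SE 0.15, adjusted p = 1.35e-05) and 11 (-1.64, SE 0.20, adjusted p = 1.79e-05). In cluster 11 it had 90.1, 111 and 128 CPM in tdTomato+GFP+ against 383, 321 and 309 CPM in tdTomato-GFP- cells, so the gates were far apart. The fall in cluster 11 exceeded that in the Th17-like clusters (interaction -0.86, SE 0.25, adjusted p = 0.0424, beside 1.24% of genes), which did not hold without the replicate block (-0.84, adjusted p = 0.0556). In a fit blocked on replicate number, clusters 0 (-0.40, adjusted p = 0.0109), 4 (-0.44, adjusted p = 0.0268) and 6 (-0.34, adjusted p = 0.0390) passed too. Cluster 0 also passed without tdTomato+GFP+ replicate 1 (-0.58, adjusted p = 0.00193), and cluster 8 (-0.62, adjusted p = 0.117) did so without the same replicate (-0.70, adjusted p = 0.00848). Bach2 log2 fold changes in single clusters ran from -0.80 (SE 0.37, cluster 11) to 0.26 (SE 0.30, cluster 2), and none passed. In cluster 4 its sign turned without tdTomato+GFP+ replicate 1 (0.23 with all replicates, -0.11 without it).

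Foxp1 was higher in tdTomato+GFP+ cells of the Th1 marker cluster 6, with 205, 181 and 171 CPM against 97.7, 93.0 and 104 CPM in tdTomato-GFP- cells, and the groups lay well apart (log2 fold change 0.90, SE 0.11, adjusted p = 3.11e-06). In the Th2-like cluster 0 it had 189, 165 and 186 CPM in tdTomato+GFP+ cells, against 113, 90.1 and 114 CPM in tdTomato-GFP- cells (0.76, SE 0.11, adjusted p = 0.000798). The calls in cluster 2 (0.83, adjusted p = 9.50e-05), cluster 3 (0.84, adjusted p = 0.000584) and cluster 4 (0.94, adjusted p = 0.00212) were of like size. The call in cluster 1 (0.66, adjusted p = 0.0109) was lost without tdTomato-GFP- replicate 1 (0.56, adjusted p = 0.154), and that in cluster 11 (1.03, adjusted p = 0.0133) without tdTomato-GFP- replicate 2 (0.99, adjusted p = 0.0810). In cluster 8 (0.92, adjusted p = 0.00872) it was lost without tdTomato+GFP+ replicate 2 (0.90, adjusted p = 0.0982) or tdTomato-GFP- replicate 2 (0.85, adjusted p = 0.175) or 3 (0.87, adjusted p = 0.118). Cluster 10 (0.44, adjusted p = 0.335) passed without tdTomato+GFP+ replicate 3 (0.61, adjusted p = 0.0411).

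Cluster 5, whose cells carry Treg markers, showed the largest Foxp1 difference of the 11 clusters. It had 456, 340.3 and 316 CPM in tdTomato+GFP+ cells, against 103, 89.4 and 89.5 CPM in tdTomato-GFP- cells. The lowest tdTomato+GFP+ replicate was thus several times the highest of the other gate, a 3.93-fold difference by the fit (log2 fold change 1.97, SE 0.15, adjusted p = 7.75e-07, edgeR). After thinning, a Foxp1 UMI was seen in 39.0%, 41.8% and 37.7% of tdTomato+GFP+ and 16.02%, 15.8% and 15.5% of tdTomato-GFP- cells. The rise exceeded that of the Th17-like clusters by 1.23 on the log2 scale (SE 0.18, adjusted p = 6.49e-06, interaction test, beside 4.18% of genes). Tcf7 had 63.6, 74.9 and 82.0 CPM in tdTomato+GFP+ cells, against 48.2, 34.8 and 60.5 CPM in tdTomato-GFP- cells, so here it was the tdTomato+GFP+ replicates that lay higher. That value (0.78, SE 0.27) did not pass (adjusted p = 0.138), but its difference from the Th17-like clusters did (1.56, SE 0.29, adjusted p = 0.000360). The interaction test took the Th17-like clusters summed, and their mix differed between the gates. It was not repeated with single replicates left out.

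Lef1 in cluster 5 was at 0, 10.2 and 8.20 CPM in tdTomato+GFP+ cells, from 0, 3 and 2 UMIs, against 42.8, 52.4 and 48.8 CPM in tdTomato-GFP- cells, from 126, 95 and 42 UMIs. Its log2 fold change of -2.50 (SE 0.47, adjusted p = 0.00464) was lost without tdTomato+GFP+ replicate 2 (-2.93, adjusted p = 0.0514). Satb1, with 84.8, 88.5 and 36.9 CPM in tdTomato+GFP+ cells, against 84.9, 111 and 162 CPM in tdTomato-GFP- cells, had overlapping groups and did not pass (-0.68, SE 0.43, adjusted p = 0.511). Bach2 did not reach the count filter there. These comparisons set 24, 80 and 58 tdTomato+GFP+ cells against 783, 484 and 229 tdTomato-GFP- cells. Other markers moved within the cluster too: the 9 Treg markers summed to 3890.4 to 6125 CPM in tdTomato+GFP+ and 6171 to 6749 CPM in tdTomato-GFP- cells, the 7 Th2 markers to 1929 to 4247 CPM against 463 to 1050.2 CPM, and the 6 naive or central memory markers to 476 to 668 CPM against 977 to 1775 CPM. Of these last markers, Dapl1 was at 0 in every replicate of both gates. Their part in the result was not tested.

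Cells with at least 1 Foxp3 UMI were compared as cells that transcribe the inserted allele against cells that transcribe the intact one. There were 661, 1531 and 754 such tdTomato+GFP+ cells and 1126, 719 and 349 such tdTomato-GFP- cells. Of the tdTomato+GFP+ cells among them, 63.5% to 74.9% per replicate were Th17-like and 1.36% to 2.92% were in cluster 5, against 2.78% to 4.17% and 53.3% to 53.7% of the tdTomato-GFP- cells. Lef1 had 6.45, 10.9 and 14.5 CPM in tdTomato+GFP+ cells, against 49.8, 55.8 and 69.0 CPM in tdTomato-GFP- cells (a fold change of -2.40 on the log2 scale, SE 0.23, adjusted p = 0.000122). Foxp1 had 185, 166 and 193 CPM against 111, 92.6 and 81.8 CPM in tdTomato-GFP- cells (0.91, SE 0.10, adjusted p = 4.16e-05). For both genes the gates were far apart. Tcf7, with 82.5, 93.0 and 95.6 CPM in tdTomato+GFP+ cells, against 86.1, 77.6 and 65.6 CPM in tdTomato-GFP- cells, overlapped and did not pass (0.22, SE 0.10, adjusted p = 0.140), and neither did Bach2 (0.25, SE 0.19, adjusted p = 0.395). Satb1, with 42.8, 51.0 and 65.4 CPM in tdTomato+GFP+ cells, against 93.3, 103 and 146 CPM in tdTomato-GFP- cells, passed (-1.07, SE 0.24, adjusted p = 0.0300). That call was lost without tdTomato+GFP+ replicate 1 (adjusted p = 0.0800) or 2 (adjusted p = 0.104) or tdTomato-GFP- replicate 2 (adjusted p = 0.0794), with values from -1.23 to -0.88 over the 6 replicates left out in turn, and with no filter on low counts (-1.08, adjusted p = 0.0640). Of the 10178 genes tested 20.1% passed, 9.04% higher and 11.1% lower. A single UMI selects these cells, and the part of free RNA in that choice was not tested.

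Within single cells, fewer of the 5 genes were detected together in the tdTomato+GFP+ gate. At least 2 of the 5 had a UMI in 23.1% ± 1.41 of tdTomato+GFP+ and 44.8% ± 1.03 of tdTomato-GFP- cells (SD, n = 3 each, not thinned), and none had one in 36.9% of tdTomato+GFP+ and 23.0% of tdTomato-GFP- cells. Without cluster 9 the shares with at least 2 were 22.5% of tdTomato+GFP+ cells, against 40.9% of tdTomato-GFP- cells, and in the Th17-like clusters 15.7% against 30.8%. The 3 replicates of a gate did not overlap with those of the other in any of these sets. In cluster 9 of the tdTomato-GFP- gate 93.0% of cells had at least 2 and 23.1% had all 5. Cluster 5 went the other way for cells with none of the 5, at 20.8%, 28.8% and 22.4% of tdTomato+GFP+ and 50.6%, 43.8% and 37.1% of tdTomato-GFP- cells. Over all assigned cells, pairs were seen in the same cell more often than the product of their shares: Lef1 and Bach2 2.36 times as often in tdTomato+GFP+ and 1.92 times in tdTomato-GFP- cells, and Tcf7 and Lef1 2.06 and 1.48 times. Tcf7 and Foxp1 were nearest to that product, at 1.10 and 1.19 times. In the Th17-like tdTomato-GFP- cells the ratio was below 1 for Foxp1 with Bach2 (0.904), Lef1 (0.968) and Tcf7 (0.991), and some pairs were below 1 in clusters 0, 5 and 7 too. Cells of greater depth carry more of every gene, so such ratios above 1 are a description only.

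**Figure D4:**
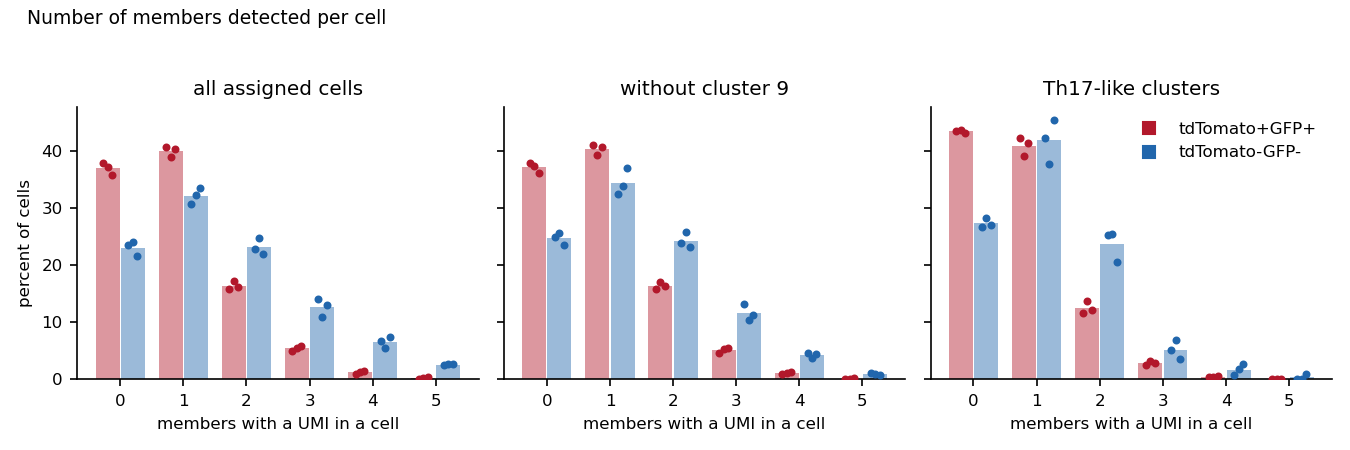
Percent of cells (y axis) with UMIs of 0 to 5 of the genes (x axis) in all assigned cells, without cluster 9 and in the Th17-like clusters; bars are means over 3 replicates and points are replicates. tdTomato+GFP+ bars are higher at 0 and tdTomato-GFP- bars higher at 2 and 3.

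Clone size was examined within each gate, where lane and gate are shared. Cells of receptors found in at least 5 cells of a replicate were compared with cells whose receptor was found once, with replicate as a block. In tdTomato+GFP+ cells Satb1, Tcf7, Lef1 and Bach2 were lower in the expanded clones, and in tdTomato-GFP- cells all 5 were, beside 4.7% and 6.84% of all genes that passed in that direction. As higher, 3.67% of 9808 genes passed in tdTomato+GFP+ and 6.96% of 10278 in tdTomato-GFP- cells, which makes 8.37% and 13.8% in either direction. Lef1 in the tdTomato+GFP+ gate had 5.51, 9.21 and 11.1 CPM in expanded clones, against 34.3, 39.1 and 47.7 CPM in cells of single receptors (log2 fold change -2.24, SE 0.19, adjusted p = 4.01e-08, edgeR). In the tdTomato-GFP- gate it had 39.4, 35.2 and 32.8 CPM in expanded clones against 166, 153 and 194 CPM (-2.24, SE 0.10, adjusted p = 2.53e-09). Expanded and single cells lay far apart in each gate, and the estimated difference between the gates' effects was 0.00 (SE 0.41) on the log2 scale.

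Tcf7 in tdTomato+GFP+ cells had 77.2, 81.6 and 86.0 CPM in expanded clones, against 309, 188 and 230.3 CPM in single receptors (-1.58, SE 0.15, adjusted p = 0.00129). In tdTomato-GFP- cells it had 262, 192 and 218 CPM against 489.6, 419 and 443 CPM (-1.05, SE 0.06, adjusted p = 3.13e-08). Satb1 was lower in expanded clones too, with log2 fold changes of -0.94 (SE 0.11, adjusted p = 3.13e-06) in tdTomato+GFP+ and -0.71 (SE 0.07, adjusted p = 6.00e-06) in tdTomato-GFP- cells. Bach2 gave -0.96 (SE 0.19, adjusted p = 0.00253) and -1.51 (SE 0.14, adjusted p = 6.04e-06), the first of which was lost without replicate 2 (-0.94, adjusted p = 0.158) or 3 (-0.85, adjusted p = 0.0864).

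Foxp1 differed between the gates in its relation to clone size. In tdTomato+GFP+ cells it had 172, 151 and 177 CPM in expanded clones and 165, 159 and 176 CPM in single receptors, which overlapped (-0.07, SE 0.08, adjusted p = 0.715). In tdTomato-GFP- cells it had 91.0, 86.7 and 101 CPM in expanded clones against 141, 123 and 141 CPM (-0.59, SE 0.07, adjusted p = 4.90e-05). The interaction was 0.51 (SE 0.10, adjusted p = 0.0122, beside 1.47% of 10491 genes). It was lost without replicate 1 (0.46, adjusted p = 0.132) or 2 (0.57, adjusted p = 0.0858) and kept without replicate 3 (adjusted p = 0.0472).

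The make-up of the arms differed as well. Th17-like cells were 81.1%, 73.2% and 68.9% of expanded and 33.0%, 36.6% and 39.2% of single cells in the tdTomato+GFP+ gate, and 19.9%, 19.1% and 37.3% against 4.57%, 3% and 4.66% in the tdTomato-GFP- gate. Cluster 9 held 0%, 0% and 0% of expanded and 2.83%, 2.71% and 5.04% of single tdTomato+GFP+ cells, and 0.0755%, 0.147% and 0.311% against 15.4%, 14.1% and 20.2% of tdTomato-GFP- cells. Cluster 7, where Tcf7 is highest, held 0.357%, 0.587% and 0.660% of expanded and 9.43%, 3.84% and 5.32% of single tdTomato+GFP+ cells, and 6.27%, 3.67% and 3.11% against 14.7%, 11.9% and 9.47% of tdTomato-GFP- cells. Among Th17-like cells alone, Tcf7 still passed in the tdTomato+GFP+ gate (-0.74, adjusted p = 0.00810), while Satb1 (-0.20, adjusted p = 0.945), Lef1 (-0.88, adjusted p = 0.723) and Bach2 (0.14, adjusted p = 0.996) did not. In the tdTomato-GFP- gate Satb1 (-0.04, adjusted p = 0.997), Tcf7 (-0.85, adjusted p = 0.166) and Foxp1 (0.000514, adjusted p = 1.00) did not pass there, and Lef1 and Bach2 did not reach the count filter.

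**Figure D5:**
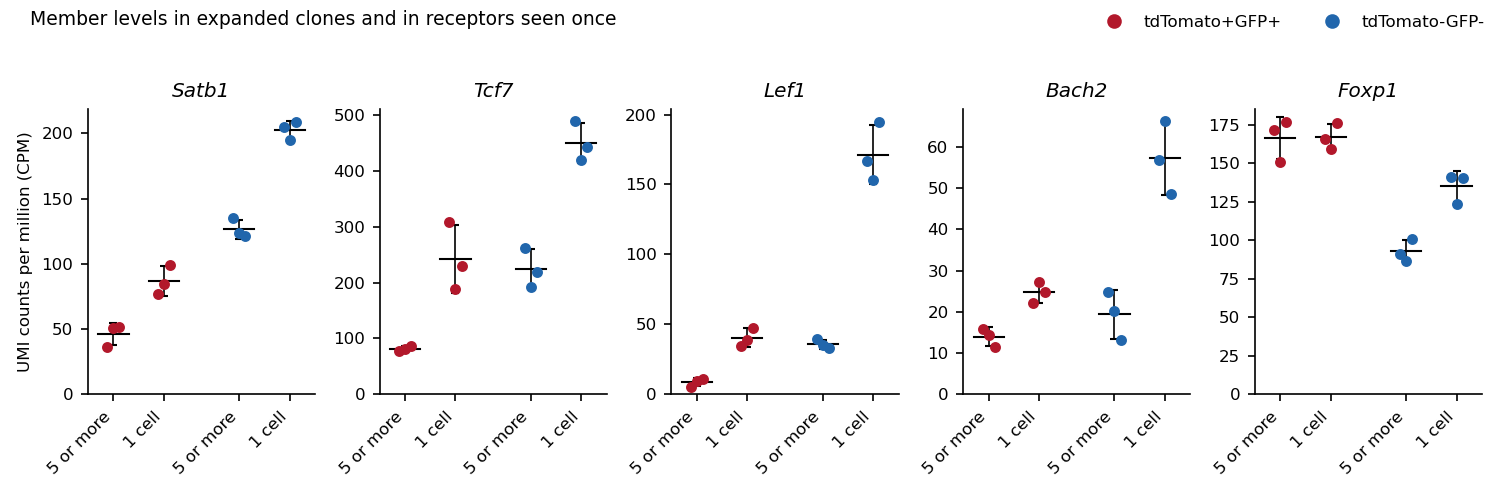
Levels of the 5 genes in CPM (y axis) per replicate (points), with mean and SD over 3 replicates, in cells of receptors seen in 5 or more cells and in 1 cell of a replicate (x axis), for tdTomato+GFP+ and tdTomato-GFP- cells. Points of expanded clones lie below those of single receptors for Satb1, Tcf7, Lef1 and Bach2 in both gates, and for Foxp1 in tdTomato-GFP- cells.

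Cells whose alpha and beta junctions occurred in both gates were compared as a set of 79 receptors. The set held 136, 323 and 119 tdTomato+GFP+ and 169, 59 and 89 tdTomato-GFP- cells. A receptor counted as shared whichever replicates it came from. Cells were pooled per replicate without matching by receptor, so the mix of receptors can differ between the gates. These cells lay in different clusters by gate, since 91, 231 and 38 of the tdTomato+GFP+ cells were Th17-like, against 57, 21 and 36 of the tdTomato-GFP- cells. Only Lef1 of the 5 passed, beside 0.365% of the 6571 genes tested. It had 7.85, 10.2 and 8.93 CPM in tdTomato+GFP+ cells, from 5, 14 and 5 UMIs, against 41.5, 31.1 and 33.6 CPM in tdTomato-GFP- cells, from 30, 8 and 13 UMIs (log2 fold change -1.96, SE 0.33, adjusted p = 0.0146). In a fit blocked on replicate number the value was -1.94 and did not pass (adjusted p = 0.0621). The call was also lost without tdTomato+GFP+ replicate 1 (-1.87, adjusted p = 0.0568) or tdTomato-GFP- replicate 1 (-1.79, adjusted p = 0.379) or 3 (-2.00, adjusted p = 0.0804). Satb1 had 54.9, 78.4 and 78.6 CPM in tdTomato+GFP+ cells, against 122, 148 and 127 CPM in tdTomato-GFP- cells, without overlap but short of the threshold (-0.86, SE 0.19, adjusted p = 0.0884). Without tdTomato+GFP+ replicate 3 both Satb1 (-0.92, adjusted p = 0.0343) and Tcf7 (-0.96, adjusted p = 0.00886, against -0.74 and 0.217 with all) passed. Foxp1 (0.63, SE 0.18, adjusted p = 0.264) and Bach2 (-0.58, SE 0.39, adjusted p = 0.787) did not.

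Genes around the 5 members were read from lists of relatives, partners and the states they are known for. Over all assigned cells, 20 of 24 naive and central memory genes were lower and none higher in tdTomato+GFP+ cells (median log2 fold change -1.42, against -0.00 over all genes), among them Dapl1 (-4.66, SE 0.95, adjusted p = 0.0190) and Igfbp4 (-2.88, SE 0.50, adjusted p = 0.0186). Of all genes 13% were higher and 13.4% lower over all cells, which is the background for each all-cell count of a list. Without cluster 9, 14 of 23 tested were lower (median -0.97), beside 13.4% of all genes. Among Th17-like cells 2 of 20 were lower and 1 higher (median -0.33). Of the HMG box relatives 3 of 8 were lower, with Sox4 first (-3.81, SE 0.55, adjusted p = 0.00149) and the chromatin proteins Hmgb3 (-0.68, adjusted p = 0.0215) and Hmgb2 (-0.49, adjusted p = 0.000861) after it, and 1 was higher. Wnt pathway genes and cofactors of beta-catenin and Groucho had 10 of 25 lower and 1 higher. Among them Tle2, a Groucho corepressor that binds TCF factors, was higher (1.88, SE 0.23, adjusted p = 0.000762), while Bcl9l, a beta-catenin cofactor (-0.73, adjusted p = 0.00174), and Ctnnbip1, an inhibitor of beta-catenin (-0.66, adjusted p = 0.00491), were lower. Tle2 passed in the Th17-like clusters as well (1.12, SE 0.33, adjusted p = 0.0381), where the list had 5 of 23 lower and 1 higher. With DESeq2 the list had 5 lower and none higher in those clusters, so Tle2 was not called, and 8 of 25 lower over all cells.

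Relatives and bZIP partners of Bach2 had 5 of 17 higher and 3 lower, with Maff (-0.84, adjusted p = 0.0230), Mafk (-0.62, adjusted p = 0.00655) and Maf (0.57, adjusted p = 0.000715) the most changed small and large Maf genes. Among Th17-like cells 3 of 16 were lower and none higher. Forkhead genes had 3 of 13 lower and none higher, namely Foxo1, a factor of naive T cells (-0.40, adjusted p = 0.00481), Foxk1 (-0.31, adjusted p = 0.00564) and Foxn2 (-0.21, adjusted p = 0.0352). In the Th17-like clusters 1 of 11 was lower, Foxo1 (-0.36, adjusted p = 0.00858), and 1 higher. Chromatin organizers had 1 of 15 lower (Bptf, -0.21, adjusted p = 0.0360) and 1 higher (Smarca4, 0.22, adjusted p = 0.0461), but 2 lower and none higher with upper quartile factors and none in either direction with DESeq2. With 3 of 13 forkhead genes and 2 of 15 chromatin organizers called, neither list exceeded the 26.4% of all genes called over all cells, and DESeq2 called 2 forkhead genes, both lower. Effector and lineage factors had 10 of 23 higher and 7 lower, with Eomes (-4.41, SE 0.68, adjusted p = 0.00222), Ikzf2 (-2.19, SE 0.08, adjusted p = 6.96e-06) and Zeb2 (1.94, SE 0.09, adjusted p = 1.17e-05) furthest out. Zeb2, an effector repressor, was higher in the Th17-like clusters too (0.55, adjusted p = 0.00344). Of 6 Treg genes at enhancers tied to Satb1, 4 were lower and 1 higher over all cells, among them Ikzf2, Ctla4 (0.92, adjusted p = 0.00271) and Ikzf4 (-0.65, adjusted p = 0.00959). In the Th17-like clusters 3 were higher and 1 lower, and in cluster 5 none was higher and 2 were lower. Foxp3 is 1 of these 6 genes. The gates were sorted on a reporter of its transcription, so its part in these counts is no separate result. For comparison, 4.75% of all genes were higher and 6.45% lower in the Th17-like clusters, and 1.51% and 2.2% in cluster 5. No list gene called over all cells, in the Th17-like clusters or in cluster 5 changed its sign with upper quartile factors, totals only or DESeq2.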

How the data were processed

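Single-cell RNA and T cell receptor libraries were made with 10x 3′ v3 or 5′ v2 chemistry, per the labels' protocols, and processed with Cell Ranger and Scanpy 1.7.2 on mm10, per the submitters' processing notes. The authors deposited whole-number UMI counts per cell and gene, with hashtag calls, cluster numbers and receptors. The deposited fraction of a cell's main hashtag was made by the authors from its hashtag counts, per the file headers. Hashtag columns (43.8% of UMIs) and 4721 cells without a replicate were left out, and 216 assigned cells had no cluster number, so values without cluster 9 lack them too.

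UMI counts were summed per replicate and tested with edgeR 4.0.16 (quasi-likelihood, trimmed-mean factors, robust, minimum count 10, R 4.3.3), adjusted by the Benjamini-Hochberg method over all genes tested, two-sided, at a threshold of 0.05. The SE is the log2 fold change over the root of the F statistic. DESeq2 1.42.0 and limma 3.58.1 were alternatives. Interactions and clone size fits had a replicate block, while the main gate fits and the permutation test left the replicate numbers out. Gate fits with the block are given as alternatives. Clusters needed 20 cells in every replicate. Thinned shares leave out cells under 2000 UMIs. A clonotype is a pair of alpha and beta junctions. Replicate numbers pair samples: deviations of same-numbered samples correlated at 0.264, 0.148 and 0.275 over all cells (0.107, 0.0128 and 0.154 in the Th17-like clusters), and same numbers shared 19, 23 and 33 clonotypes across gates, different numbers 0 to 3. Within a gate, different numbers shared 13, 1 and 12 (tdTomato+GFP+) and 21, 3 and 9 (tdTomato-GFP-). On simulated counts for all cells (11773 genes), 78.4% of 2-fold and 96.1% of 4-fold changes were recovered. For the Th17-like clusters these shares were 85.4% and 99.0%, and for cluster 5, with fewer cells, 55.4% and 94.8%. The labels call the replicates biological without naming animals.

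Members and lists were chosen with earlier results of these data known. Genes were named as the 5 members, the 5 genes most like each by Pearson's r, of which some are printed, and the 3 called genes of each list with the largest change over all cells. 1 gene that this rule names is not reported here. Doublets were not called here. Intervals and limits cover counting error only.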

Additional observations from a re-analysis of the deposited data

Results flagged for a closer look

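In 7 cases the effect of the gate in a cluster differed from that in the Th17-like clusters by a test of the difference itself, the interaction of gate and cluster in edgeR. For Satb1 the difference was 1.17 in cluster 0, 1.03 in cluster 4, 1.74 in cluster 7 and 1.17 in cluster 11 on the log2 scale, so the lower level in tdTomato+GFP+ cells was less marked in these clusters. For Tcf7 it was 1.56 in cluster 5, where tdTomato+GFP+ replicates were the higher ones, and -0.86 in cluster 11. For Foxp1 it was 1.23 in cluster 5. The Th17-like clusters were summed for these tests, and their mix differed between the gates. The effect of clone size on Foxp1 differed between tdTomato+GFP+ and tdTomato-GFP- cells by 0.51. The adjusted p-values stand beside these values in the report. With 3 samples a group, single samples that stand apart from their group were not looked for.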

How the results depend on the processing

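Log2 fold changes are tdTomato+GFP+ over tdTomato-GFP- cells unless clone size is named. Equal cells per cluster gave Tcf7 -0.56, Lef1 -1.27 and Bach2 -0.32 over all cells, none past the threshold, and equal cluster weights with limma gave Bach2 -0.28. These settings called 268 and 602 genes over all cells, and 1 cell per clonotype 1516, against 3153. No filter on low counts ended the call of Satb1 in Foxp3 UMI-positive cells (-1.08) and called Tcf7 in 6 single clusters, and DESeq2 called Lef1 in 4, with 4836 and 1846 calls summed over single clusters, against 2838. In Th17-like cells only, clone size gave Satb1 -0.20, Lef1 -0.88 and Bach2 0.14 in tdTomato+GFP+ cells and Satb1 -0.041, Tcf7 -0.85 and Foxp1 0.000514 in tdTomato-GFP- cells, with 93 and 4 genes called, against 821 and 1418. The cause was not tested.

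The replicate block called 1726 genes in the Th17-like clusters against 1129, called Tcf7 in 6 clusters against 3 and Lef1 also in cluster 1, ended the call of Lef1 at shared receptors (-1.94) and changed no other call of a member. Without the replicate block, the cluster 11 interactions of Satb1 (1.21) and Tcf7 (-0.84) were lost and clone size in tdTomato+GFP+ cells had 518 calls.

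Differences in the share of cells with a UMI, in percentage points, thinned to 1000 UMIs, not thinned and without cluster 9, were -8.95, -22.2 and -12.2 for Satb1, -14.2, -23.1 and -16.8 for Tcf7, -7.18, -17.6 and -7.30 for Lef1, -2.10, -6.78 and -2.08 for Bach2, and 3.89, 9.05 and 8.27 for Foxp1.

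Leaving out 1 replicate at a time gave 2005 to 3003 called genes over all cells (lowest without tdTomato+GFP+ replicate 2, and 2093 without tdTomato-GFP- replicate 2), 1885 to 2915 without cluster 9 (lowest without tdTomato-GFP- replicate 2, and 1892 without tdTomato+GFP+ replicate 2), 612 to 1053 in the Th17-like clusters (lowest without tdTomato-GFP- replicate 1), 1342 to 2050 in Foxp3 UMI-positive cells (lowest without tdTomato+GFP+ replicate 2), 246 to 928 for clone size in tdTomato+GFP+ cells (lowest without replicate 2, and 482 without replicate 3), 70 to 158 for its difference between gates (lowest without replicate 1, and 84 without replicate 2), and 4 to 102 at shared receptors against 24 (highest without tdTomato+GFP+ replicate 3 and lowest without tdTomato-GFP- replicate 1, with 7 without tdTomato+GFP+ replicate 1 and 15 and 9 without tdTomato-GFP- replicates 2 and 3). Summed over single clusters there were 1585 to 3038 (lowest without tdTomato+GFP+ replicate 2, and 1671 and 1881 without tdTomato-GFP- replicates 1 and 2). Values ran from -1.68 to -1.18 for Lef1 in the Th17-like clusters, -1.23 to -0.88 for Satb1 in Foxp3 UMI-positive cells, -1.06 to -0.85 for Bach2 by clone size in tdTomato+GFP+ cells, 0.46 to 0.57 for Foxp1 and -0.15 to 0.21 for Lef1 (-0.04 without replicate 2) in its difference between gates. At shared receptors they ran from -0.95 to -0.71 for Satb1, -0.96 to -0.59 for Tcf7 and -2.09 to -1.79 for Lef1. Tcf7 was called in 3 to 5 and Lef1 in 4 to 7 single clusters. Signs turned for Bach2 in cluster 4 (-0.11 to 0.68) and Satb1 in cluster 7 (-0.30 to 0.034). Totals only, and the test of the clone size effect between gates, were chosen after seeing the data. Upper quartile factors and totals only moved no member across the threshold in the sets of cells or single clusters in which they were run. Low counts limit Lef1 in tdTomato+GFP+ cells and Bach2 in single clusters.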
